A study of Mus musculus with 6 samples.

Results

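The splicing regulators described here are the SR proteins, the hnRNP proteins and 6 smaller families of tissue-specific factors, measured in whole-brain RNA of mice in which the RNA-binding protein HuR, the product of Elavl1, was open to deletion in neurons. Members were the genes whose symbol starts with Srsf, Hnrnp, Nova, Rbfox, Celf, Mbnl, Ptbp, Tra2 or Khdrbs, leaving out Hnrnpd, Hnrnpa1 and Hnrnpa2b1, and each gene was read by its probeset with the highest mean level. This gave 49 genes of 22180 with a probeset that carries 1 gene symbol. Of the 49, 10 encode SR proteins, 2 encode the SR-like Tra2 proteins, 17 carry an hnRNP symbol, and 20 belong to the Nova, Rbfox, Celf, Mbnl, Ptbp and Khdrbs families. Srsf7 and Hnrnph3 were not analysed here.

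Expression was measured on 6 Affymetrix Mouse Gene 2.0 ST arrays, 1 per sample, with 3 control and 3 knockout samples. Control mice had the genotype Thy1Cre-ERT2-EYFPHuRf/+, with 1 floxed allele of Elavl1, and knockout mice the genotype Thy1Cre-ERT2-EYFPHuRf/f, with both alleles floxed. Both groups therefore carried a Cre recombinase that tamoxifen activates, driven with its EYFP reporter by the neuronal Thy1 promoter, and both received tamoxifen at 10 and 11 weeks of age. Brains came from 91-day-old mice of either sex, and the labels give no sex per sample. Cre was active in neurons that use the Thy1 promoter, so other brain cells kept Elavl1, and the controls could themselves lose 1 allele. The labels name no individual animal behind a sample, and the p-values therefore rest on the spread between these 6 samples.

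Pre-mRNA splicing is steered by proteins that bind short motifs in exons and introns. SR proteins carry RNA recognition motifs and a tail rich in arginine and serine, and mostly favour inclusion of the exons they bind. hnRNP proteins coat nascent transcripts and often oppose them. Nova, Rbfox, Celf, Mbnl, Ptbp and Khdrbs proteins set tissue-specific programmes: Ptbp1 holds back neuronal exons in non-neuronal cells, its paralogue Ptbp2 takes its place in developing neurons, and Nova and Rbfox proteins shape exon choice at synapses and ion channels. Many SR and hnRNP genes limit their own output through exons that send the transcript to nonsense-mediated decay. HuR is itself an RNA-binding protein of the nucleus and cytoplasm that stabilises mRNAs and also takes part in splicing. An array value per gene sums over isoforms, so the values below are transcript levels and say nothing of exon use.

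Levels are log2(intensity + 1) after quantile normalization, and 47 of the 49 genes were bright enough to be tested, which required a mean level of at least 3.28, the 25th percentile over all genes. The other two were Mbnl3, the muscleblind paralogue of low abundance in adult brain, at 3.16, and Hnrnpa1l2-ps2, a copy related to the hnRNP A1 gene, at 3.07. The targeted gene was checked first. Elavl1 had log2 levels of 8.27, 8.01 and 8.53 in control and 8.22, 8.17 and 8.27 in knockout brain. The groups overlapped, and the difference of knockout minus control was -0.05 ± 0.15 (SE, log2 scale; two-sided exact permutation p = 0.7, where 3 against 3 arrays allow no p below 0.1); its sign turned with arrays centred on their median (0.014), with array weights (0.025), without both arrays numbered 3 (0.059) and without control 3 alone (0.081). Where the probeset lies relative to the floxed exons is unknown here, so this value does not check the labels. The arrays numbered 3 stood apart in both groups, with Xist, which coats the inactive X chromosome, at 7.69 in control 3 and 7.68 in knockout 3 against 2.52 to 2.79 on the other 4.

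No splicing regulator passed the test for a difference between knockout and control brain. Of 47 tested, 0 had an adjusted p under 0.05 (limma with Benjamini-Hochberg adjustment over 16635 genes, smallest adjusted p among the members 1.00), and the share called over all genes was 0%. At an unadjusted p under 0.05 there were 0 members, where 1.7% of all genes lay under it, 0.932% higher and 0.763% lower in knockout. The members had values above 0 in 30 genes and below 0 in 17, with a median log2 fold change of 0.017, beside 0.013 and 54.8% above 0 over all genes tested. With arrays centred on their median in place of quantile normalization, 38 of 47 members and 68.6% of all genes lay above 0. With arrays paired by replicate number, members under an unadjusted p of 0.05 again numbered 0, beside 4.85% of all genes.

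The intervals show how large a difference these arrays could have missed. A member's 95% confidence interval reached 0.30 to either side at the median, on the log2 scale, beside 0.33 over all genes. For 43 of the 47 members (91.5%, beside 80.6% of all genes) the whole interval lay inside a 1.5-fold difference either way. The other four were Celf3, up to 0.65, Celf4, up to 0.64, Rbfox1, up to 0.60, and Srsf1, up to 0.60 on the log2 scale. All these intervals come from the fit without pairing, where a level shared by same-numbered arrays widens them. With arrays paired by replicate number, the standard error fell from 0.25 to 0.13 for Celf3 and from 0.23 to 0.09 for Celf4. It fell from 0.23 to 0.10 for Rbfox1 and from 0.14 to 0.13 for Srsf1. No label states such a pairing. Fold changes of the members ran from -0.15 for Khdrbs2 to 0.28 for Srsf1. A fold change beyond 0.1 in size was found in 9 members (19.1%), beside 37.8% of all genes tested and 32.2% of those in the upper 50% by level. The members had a median SD between arrays of 0.139 in control and 0.121 in knockout brain, beside 0.175 and 0.154 over all genes.

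**Figure D1:**
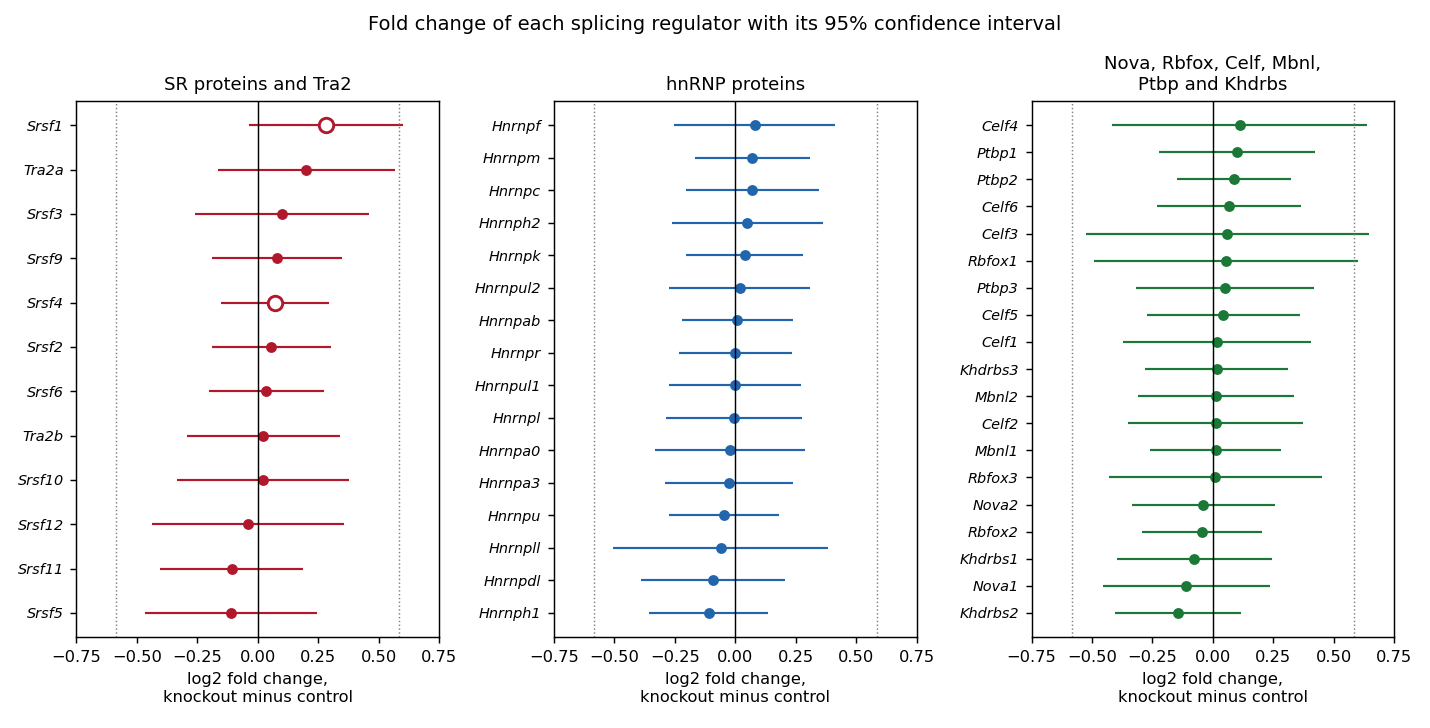
Log2 fold change of knockout minus control (x axis) for the 47 tested splicing regulators, in 3 panels by class, with 95% confidence intervals from limma (n = 3 arrays per group). Dotted lines mark 1.5-fold either way, and open circles mark Srsf1 and Srsf4, whose groups did not overlap; only the upper ends of Srsf1, Celf3, Celf4 and Rbfox1 cross a dotted line.

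**Figure D2:**
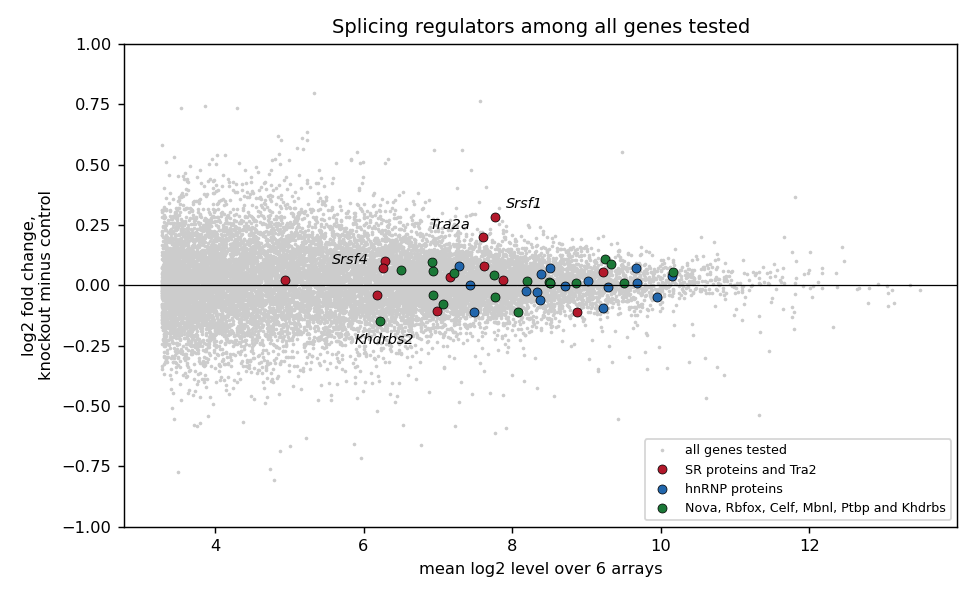
Mean log2 level over the 6 arrays (x axis) against the log2 fold change of knockout minus control (y axis). Grey points are all 16635 genes tested, apart from 2 that lie beyond 1 on the y axis, and coloured points are the 47 splicing regulators by class, which lie between -0.15 and 0.28.

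Of the 47 tested members, those whose groups did not overlap were the SR genes Srsf1 and Srsf4, both higher in knockout. They are 2 of 47 members (4.26%), beside 5.7% of all genes tested, with 3.14% higher and 2.55% lower in knockout, so the count is near that over all genes. Mbnl3, too dim to be tested, had no overlap either, with log2 levels of 3.22, 3.19 and 3.25 in control and 3.02, 3.14 and 3.10 in knockout; with no brightness filter there were thus 3 such members of 49, beside 6.79% of all genes. Srsf1, which binds purine-rich exonic enhancers and also acts in translation and decay, had log2 levels of 7.73, 7.38 and 7.77 in control and 7.80, 8.003 and 7.92 in knockout brain. Control 2 was the lowest array by a wide margin, and knockout 1 lay just above control 3. The log2 fold change was 0.28 ± 0.14 (SE), a 1.22-fold difference, with an unadjusted p of 0.075 and an adjusted p of 1.00 (limma, n = 3 each). Without control 2 it was 0.16, and without control 3 it was 0.35 with an unadjusted p of 0.0498. The differences within same-numbered pairs were 0.07, 0.62 and 0.15. A dimmer second probeset of Srsf1 had means of 4.38 in control and 4.48 in knockout, a difference of 0.10, with overlapping groups.

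Srsf4, an SR protein with a long arginine-serine tail, had levels of 6.18, 6.24 and 6.24 in control and 6.28, 6.33 and 6.27 in knockout brain. All 6 values lay close together and the groups were separated by a narrow gap. Its log2 fold change was 0.07 ± 0.10 (SE; limma unadjusted p = 0.471). Leaving out each array in turn kept it between 0.05 and 0.08.

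The promoter windows of Srsf1 and Srsf4 are printed since their groups did not overlap, and those of Srsf3 and Rbfox3 as examples of genes with low and with high levels on both arrays numbered 3. Each window runs from 250 bases before to 50 bases after a RefSeq transcription start (GRCm38.p6), 5′ to 3′ on the gene's strand. Capitals mark matches on either strand to 5 promoter motifs, and overlapping matches are counted each. The TATA box was searched as the letters TATAAA. The CCAAT box was searched as its own letters, and the GC box as GGGCGG. The cyclic AMP response element was searched as the letters TGACGTCA. The E-box was searched as CACGTG. Srsf1 lies at chr11:88047123-88047422 on the plus strand and its window holds 1 CCAAT box and 1 GC box. Srsf4, shown at the most upstream of 3 listed starts, lies at chr4:131873387-131873686 on the plus strand and holds 4 GC boxes. Srsf3 lies at chr17:29032410-29032709 on the plus strand and holds 1 TATA box and 1 CCAAT box. Rbfox3 lies at chr11:118760992-118761291 on the minus strand and holds 1 CCAAT box.
Srsf1: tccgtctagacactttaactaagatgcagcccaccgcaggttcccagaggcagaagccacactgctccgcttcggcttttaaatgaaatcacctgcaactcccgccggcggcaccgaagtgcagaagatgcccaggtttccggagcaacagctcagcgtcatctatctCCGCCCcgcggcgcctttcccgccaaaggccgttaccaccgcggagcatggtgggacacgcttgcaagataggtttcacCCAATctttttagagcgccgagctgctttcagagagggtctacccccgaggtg
Srsf4: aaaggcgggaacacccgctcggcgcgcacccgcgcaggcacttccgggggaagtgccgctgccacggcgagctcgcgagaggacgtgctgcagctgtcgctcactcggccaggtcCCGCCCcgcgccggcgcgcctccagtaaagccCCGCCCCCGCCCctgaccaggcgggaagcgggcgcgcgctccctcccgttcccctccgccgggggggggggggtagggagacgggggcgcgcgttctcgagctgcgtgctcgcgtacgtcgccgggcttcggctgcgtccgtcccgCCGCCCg
Srsf3: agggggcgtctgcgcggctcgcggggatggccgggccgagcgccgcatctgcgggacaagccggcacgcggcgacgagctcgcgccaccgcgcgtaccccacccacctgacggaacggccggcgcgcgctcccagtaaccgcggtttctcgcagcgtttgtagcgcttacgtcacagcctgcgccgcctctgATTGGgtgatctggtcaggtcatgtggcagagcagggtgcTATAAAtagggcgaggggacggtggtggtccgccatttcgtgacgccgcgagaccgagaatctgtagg
Rbfox3: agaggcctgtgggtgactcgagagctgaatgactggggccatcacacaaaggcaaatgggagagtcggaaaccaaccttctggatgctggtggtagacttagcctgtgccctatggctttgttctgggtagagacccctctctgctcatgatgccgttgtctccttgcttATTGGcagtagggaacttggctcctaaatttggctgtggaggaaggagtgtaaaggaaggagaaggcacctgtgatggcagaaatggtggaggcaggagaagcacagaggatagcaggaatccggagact

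The 3 SR windows had 22 (Srsf1), 49 (Srsf4) and 42 (Srsf3) CpG dinucleotides, and the Rbfox3 window 4. RefSeq windows were found for 42 of the 49 members, 70 windows in all, with a median of 23.5 CpG and a GC content of 63.2%, beside 7 and 52.7% over 32851 windows of all genes. The GC box was held by 48 member windows (68.6%) and 35.7% of all windows, and the CCAAT box by 45.7% and 37.4%. A TATA box was held by 12.9% of member windows and 13.6% of all, an E-box by 8.57% and 7.15%, and the cyclic AMP response element by 5 windows of 3 genes, Celf3, Celf6 and Tra2a (7.14%), and 1.79% of all. Windows of 1 gene can overlap, and a match describes letters and not a bound site.

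Tra2a, which binds GAA-rich exonic enhancers with its paralogue Tra2b, had the next largest value. Its log2 levels were 7.52, 7.52 and 7.497 in control and 7.95, 7.80 and 7.38 in knockout brain. The controls were nearly equal, while knockouts 1 and 2 lay above them and knockout 3 below. The log2 fold change was 0.20 ± 0.16 (SE; limma unadjusted p = 0.237). It was 0.08 without knockout 1, 0.37 without knockout 3 (unadjusted p = 0.0185) and 0.36 without both arrays numbered 3 (unadjusted p = 0.0191), and no adjusted p passed in any of these. Tra2b, needed for brain development, had levels of 7.97, 7.96 and 7.67 in control and 7.98, 7.98 and 7.71 in knockout, so that each knockout array lay within 0.04 of the control of the same number.

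**Figure D3:**
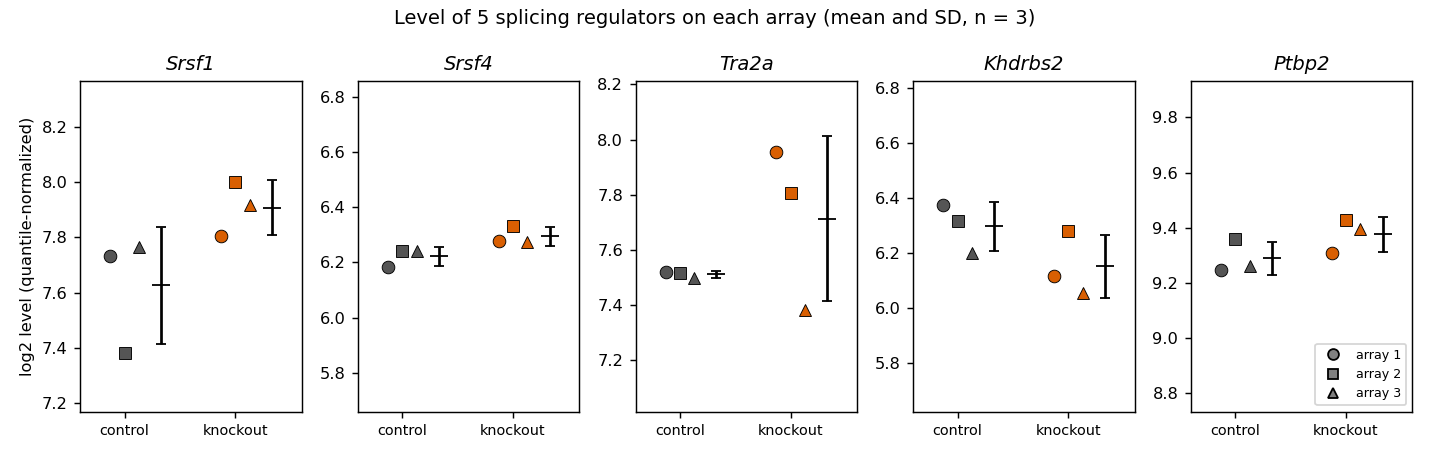
Quantile-normalized log2 level (y axis, a span of 1.2 in every panel) of Srsf1, Srsf4, Tra2a, Khdrbs2 and Ptbp2 on the 3 control (grey) and 3 knockout (orange) arrays, with marker shapes for replicate numbers 1 to 3 and bars for mean and SD (n = 3). Srsf1 and Srsf4 show no overlap between groups, and in Tra2a knockout 3 lies below all controls while the other two lie above.

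The other SR genes had overlapping groups. Srsf3, the smallest SR protein and a factor in mRNA export, had a value of 0.10 ± 0.16 (SE). Srsf9 was at 0.08. In the other direction, Srsf5, first described in regenerating liver, was at -0.11 ± 0.15 (SE), Srsf11 at -0.11 ± 0.13 and Srsf12 at -0.04 ± 0.17. Srsf5 had levels between 8.80 and 9.01 in control and of 8.64, 8.71 and 9.12 in knockout. Knockouts 1 and 2 were its lowest arrays and knockout 3 its highest. Over the 12 SR and Tra2 genes, 9 had values above 0 and 3 below, with a median of 0.047, and 0 passed an unadjusted p of 0.05.

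The hnRNP genes had a median size of difference of 0.043 over 16 tested, beside 0.075 over all genes and 0.066 over those in the upper 50% by level. Of these, 7 lay above 0 and 9 below, with a median of -0.001. Hnrnph1, which binds G-rich runs, had log2 levels of 7.53, 7.65 and 7.46 in control and 7.37, 7.46 and 7.48 in knockout brain. Its groups overlapped through control 3, and its log2 fold change was -0.11 ± 0.10 (SE; limma unadjusted p = 0.331). Hnrnpdl, the D-like paralogue of AUF1, was at -0.09 ± 0.13 (SE); it was -0.002 without control 1 and -0.20 without control 3. Hnrnpll, the L-like factor known from lymphocyte CD45 splicing, was at -0.06 ± 0.19, and Hnrnpu, the nuclear scaffold protein, at -0.05 ± 0.10. Of the hnRNP genes above 0, those with the smallest p were Hnrnpf, the partner of H1 on G-rich runs, at 0.08 ± 0.14 (SE), Hnrnpm at 0.07 ± 0.10, Hnrnpc, which binds uridine tracts, at 0.07 ± 0.12, and Hnrnpk, a poly(C)-binding protein, at 0.04 ± 0.10. For all 16 the 95% interval lay inside 1.5-fold.

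The polypyrimidine tract proteins had values above 0. Ptbp2, the neuronal form, had levels of 9.25, 9.36 and 9.26 in control and 9.31, 9.43 and 9.39 in knockout brain. Each knockout array lay above the control of the same number, by 0.06, 0.07 and 0.13, but knockout 1 lay below control 2. All 3 such differences lay above 0 in 10 of the 47 tested members and below 0 in 4, and no label states a pairing. The share over all genes was not counted, so no conclusion is drawn from these counts, here or for the genes below. The log2 fold change was 0.09 ± 0.10 (SE; limma unadjusted p = 0.415). Ptbp1, the repressor of neuronal exons, was at 0.10 ± 0.14 (SE), with levels of 6.71, 6.81 and 7.11 in control and 6.91, 7.11 and 6.89 in knockout. Its fold change was 0.22 without control 3 and 0.01 without control 1. Ptbp3, the paralogue first found in blood cells, was at 0.05 ± 0.16.

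Among the STAR proteins of the Khdrbs family, which bind paired UAA motifs, Khdrbs2 (SLM1) had the lowest value of all members. Its levels were 6.37, 6.32 and 6.20 in control and 6.12, 6.28 and 6.06 in knockout brain. Each knockout array lay below the control of the same number, as in 4 of the 47 tested members, with overlap between the groups through knockout 2. The log2 fold change was -0.15 ± 0.11 (SE; limma unadjusted p = 0.232), and it stayed below 0 when each array was left out in turn, between -0.21 and -0.10. Khdrbs1 (Sam68), which acts in neurexin splicing with its paralogues, was at -0.08 ± 0.14, and Khdrbs3 (SLM2) at 0.02 ± 0.13.

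The tested Nova, Rbfox, Celf and Mbnl genes, which leave out the dim Mbnl3, had differences of at most 0.11 in size. Nova1, which binds YCAY clusters in neuronal transcripts, had levels of 7.97, 8.13 and 8.31 in control and 7.87, 7.95 and 8.27 in knockout brain. Each knockout array lay below the control of the same number, as in 4 of the 47 tested members, while the ranges of the groups overlapped. Its log2 fold change was -0.11 ± 0.15 (SE), and Nova2 was at -0.04 ± 0.13. Rbfox1, Rbfox2 and Rbfox3, which bind GCAUG, were at 0.06, -0.05 and 0.01, with standard errors of 0.23, 0.11 and 0.19; Rbfox3 is the antigen NeuN of neuronal nuclei. The CELF proteins, which bind GU-rich elements, had values of 0.02 for Celf1, 0.01 for Celf2, 0.06 for Celf3, 0.11 for Celf4, 0.04 for Celf5 and 0.07 for Celf6. Mbnl1 and Mbnl2, the muscleblind proteins sequestered by CUG repeats in myotonic dystrophy, were at 0.01 each. Over the 19 tested genes of the 6 families, 14 lay above 0, with a median of 0.016, and 0 passed an unadjusted p of 0.05.

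One pattern was shared by both genotypes and separated the arrays numbered 3 from the rest. Array 3 was the highest of its group in both control and knockout brain for 10 of the 19 tested Nova, Rbfox, Celf, Mbnl, Ptbp and Khdrbs genes (52.6%), beside 27.2% of all genes tested. These were Celf1 to Celf5, Rbfox1, Rbfox3, Nova1, Mbnl1 and Mbnl2. Rbfox1 had levels of 9.84, 9.94 and 10.64 in control and 10.09, 9.995 and 10.50 in knockout brain. Celf4 had 8.95, 9.06 and 9.60 in control and 9.13, 9.10 and 9.71 in knockout, and Celf3 6.59, 6.77 and 7.36 against 6.99, 6.57 and 7.33. Control 3 of Rbfox1 thus lay 0.74 above the mean of controls 1 and 2, and knockout 3 lay 0.46 above that of knockouts 1 and 2.

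For SR genes the arrays numbered 3 lay the other way. Array 3 was the lowest of its group in both genotypes for 6 of the 12 SR and Tra2 genes, beside 24.4% of all genes, and the highest for 2, Srsf5 and Srsf12. The 6 were Srsf2, Srsf3, Srsf9, Srsf10, Tra2a and Tra2b. Srsf3 had levels of 6.38, 6.40 and 5.95 in control and 6.41, 6.44 and 6.18 in knockout brain. Of the 16 hnRNP genes, 5 were lowest and 4 highest on both arrays numbered 3. Hnrnpll had 8.54, 8.62 and 8.07 in control and 8.53, 8.47 and 8.05 in knockout. Ptbp3 was also lowest there, at 6.93 in control 3 and 7.05 in knockout 3 against 7.25 to 7.44 on the other 4. These counts describe 2 arrays chosen because they stand apart, and no test was made on them.

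Markers of several brain cell types, but not of all, moved with the same arrays. The summed intensity of 12 neuronal markers was 20034 in control 3 and 19716 in knockout 3 against 14376 to 15359 on the other 4. Endothelial markers (7 genes) summed to 486 and 532 against 197 to 261, microglial markers (7 genes) to 902 and 872 against 1238 to 1352, and meningeal fibroblast markers (6 genes) to 408 and 448 against 669 to 791. Astrocyte sums were 6880 and 6978 against 7134 to 8169, and choroid plexus sums 5045 and 5118 against 5336.5 to 6770. The choroid plexus sum was mostly Ttr, at a control mean of 12.37 on the log2 scale. Folr1, Clic6 and Otx2 were at 4.92, 5.17 and 5.08. The median deviation of that list from the control mean was 0.03 in control 3 and -0.06 in knockout 3. Both lay inside the range of the other 4, -0.10 to 0.29, so the list did not move as a whole. Oligodendrocyte sums of 4281 and 3963 lay inside the range of the other 4, 3800 to 4662. The precursor sum of control 3, 902, lay inside that of the other 4, 764 to 916, and that of knockout 3, 925, lay just above it. No marker of these lists was at 0 on any array, and neuronal, astrocyte and oligodendrocyte markers were all present. Between genotypes the sums overlapped for all 8 marker lists measured; the neuronal sum ran from 14376 to 20034 in control and from 15179 to 19716 in knockout brain. All 12 neuronal markers lay above 0 (median 0.045 on the log2 scale), and 0 had an unadjusted p under 0.05 in limma. Of the 8 tested oligodendrocyte markers 7 lay below 0, with a median of -0.083, and for 3 the groups did not overlap, all lower in knockout, where 2.55% of all genes did so. These were Opalin, a myelin membrane protein, at -0.58 ± 0.18 (SE; limma unadjusted p = 0.0132, adjusted p = 1.00), the tight junction protein Cldn11 at -0.25 ± 0.12 and the myelin protein Mog at -0.19 ± 0.13. In the other 7 lists 1 marker had no overlap, Col3a1, higher in knockout. The part of these cell type markers in the members' levels was not tested. In whole-brain RNA, fewer cells of a type and less RNA per cell cannot be told apart.

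**Figure D4:**
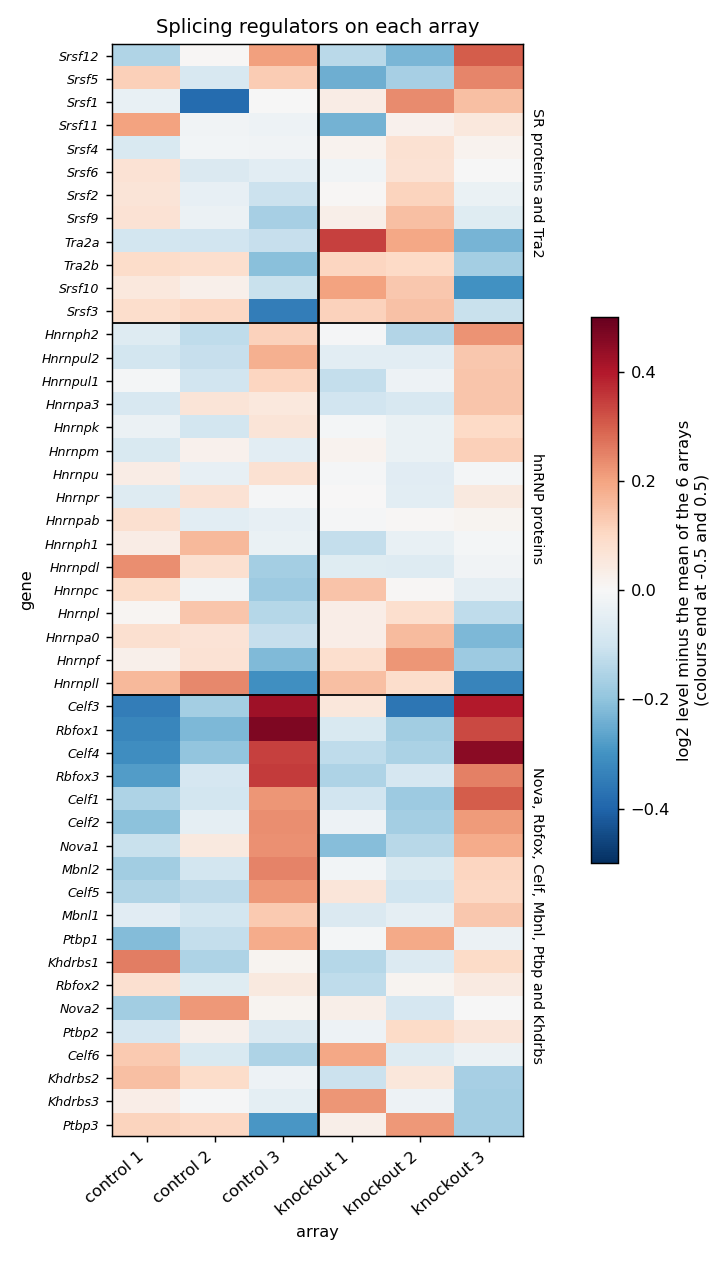
Log2 level minus the mean of the 6 arrays (colour, from -0.5 to 0.5) for the 47 tested splicing regulators (rows, grouped by class and ordered by the deviation of the arrays numbered 3) on each control and knockout array (columns). Control 3 and knockout 3 are red for Rbfox1, Rbfox3, Nova1 and Celf1 to Celf5 and blue for Srsf3, Tra2b, Hnrnpll and Ptbp3.

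Each genotype had 1 array numbered 3, and leaving out 1 of them left the other without its counterpart. Without control 3 the groups did not overlap in 12 members, and without knockout 3 in 10, beside 21.2% and 18.1% of all genes tested. Without both, 19 members did not overlap, beside 34.8% of all genes, as 2 arrays against 2 separate more easily. The median log2 fold change of the Nova to Khdrbs families ran from -0.081 to 0.080 when arrays were left out 1 at a time. Under an unadjusted p of 0.05 there was Srsf1 without control 3, beside 3.46% of all genes, and Tra2a without knockout 3, beside 2.79%. Without both arrays numbered 3 there was Tra2a, beside 5.12% of all genes, and with array weights Srsf1 and Tra2a, beside 4.54%. No member lay under it with the other alternatives tried.

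For 11 members the array holds more than 1 probeset with that symbol. Hnrnpf had 5, with differences of 0.08 for the one used and 0.16, 0.24, 0.08 and -0.004 for the others, and the groups overlapped on all 5. Hnrnpk had 3, at 0.04 for the one used and -0.10 and 0.24 for the others. Where the probesets lie is unknown here, and both genes have near-identical copies in the genome, so these levels are uncertain. Mbnl2 was at 0.01 on the probeset used and at 0.005 and -0.16 on dimmer ones. The one further probeset whose groups did not overlap was a dim one of Hnrnpul1, at 3.08 in control and 3.36 in knockout, under the brightness limit of 3.28 on average.

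Other genes of the splicing pathway were read from 4 lists. None of the 13 tested SR protein kinases and coactivators had an unadjusted p under 0.05; 6 lay above 0 and 7 below, with a median of -0.003. Srpk1, which phosphorylates SR proteins in the cytoplasm, was at 0.18 ± 0.15 (SE), the nuclear speckle protein Son at -0.09 ± 0.12 and Srpk3 at -0.09 ± 0.12. Of 26 other RNA-binding splicing regulators, 0 had an unadjusted p under 0.05 and 17 lay above 0, with a median of 0.030; Pcbp1, a poly(C)-binding protein, was at 0.17 ± 0.11, Fubp3 at 0.15 ± 0.10 and Srrm3, which promotes neuronal microexons, at 0.15 ± 0.12. The groups did not overlap for 2 of the 26 (7.69%, beside 5.7% of all genes), Fubp3, higher in knockout, and Fubp1, lower in knockout at -0.10.

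Of 31 core spliceosome genes, 0 passed the adjusted threshold in limma. At an unadjusted p under 0.05 there was 1, where 1.7% of all genes lay under it. That gene was Sf3b4, a subunit of the U2 snRNP, with a value of 0.51 ± 0.20 (SE), an unadjusted p of 0.0381 and overlapping groups. Its control level of 3.09 lay below the brightness limit of 3.28, and its knockout level of 3.60 above it. It thus passed the filter only through the knockout arrays, and no conclusion is drawn from its p. Snrpc, the U1 C protein, was at -0.21 ± 0.11 (SE). It was the 1 gene of the 31 without overlap (3.23%, beside 5.7% of all genes). Snrpb, of the Sm ring, was at -0.29 ± 0.17. The list had 17 genes above 0 (54.8%, beside 54.8% of all genes) and a median of 0.004. Of 10 exon junction and nonsense-mediated decay genes, 8 lay above 0 (80%, beside 54.8% of all genes), with a median of 0.076. Under an unadjusted p of 0.05 there were 0. The decay factor Smg5 was at 0.12 ± 0.10 (SE) and was the 1 gene of the 10 without overlap (10%, beside 5.7% of all genes). The junction helicase Eif4a3 was at 0.23 ± 0.20 and Rbm8a at 0.13 ± 0.12. With arrays paired by number, unadjusted p-values under 0.05 went to 2 of the 31 core spliceosome genes, Sf3b4 and Snrpb. In the list of 10 they went to 1, Eif4a3. Over all genes the share was 4.85%, and 0 passed after adjustment.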

How the data were processed

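Whole-brain RNA of 3 control and 3 knockout samples was measured on 6 arrays. RNA was isolated in TRIzol, and 150 ng of it was biotinylated with the Affymetrix WT Plus kit, per the labels' protocols. The table deposited by the authors gives linear intensity for 41340 probesets. The submitters' processing notes name MAS5 and no version; background correction and scaling target are unknown here. Array medians of the deposited intensity ran from 13.4 to 14.6. From these, log2(intensity + 1) was taken and quantile-normalized, since array medians differed by 0.12 on the log2 scale. The annotation gave 23521 probesets with 1 symbol and 1814 with several, which were not used. A filter on mean level at the 25th percentile removed 5545 of 22180 genes. A fold change on the log2(intensity + 1) scale understates changes of dim genes. All 49 members matched a RefSeq gene ID, and 0 per-sample columns were left unused.

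Groups were compared in R 4.3.3 with limma 3.58.1, by two-sided moderated tests on all genes with Benjamini-Hochberg adjustment at 0.05; the procedure was tested on simulated data. Sets were described by counts and medians. Deviations from group means over all genes correlated at 0.31, 0.37 and 0.75 for same-numbered arrays 1, 2 and 3. Crossing numbers 1 and 2 gave values at least as high, 0.40 (control 1, knockout 2) and 0.37 (knockout 1, control 2). Only the arrays numbered 3 therefore stood out as a pair, and the correlations give no ground for pairing within numbers 1 and 2. The replicate number was still used as a block in 1 alternative, although no label states such a pairing. Alternatives covered normalization, filter, pseudocount, probeset rule, variance trend, array weights and left-out arrays. Members and lists were chosen with earlier results of these data known. Named genes were Elavl1, all genes of the 7 small families (Tra2 with the other 6), the 4 Srsf and the 4 Hnrnp genes with the smallest p in each direction (3 Srsf genes were below 0), members without overlap, and 3 genes of each other list; Srsf2, Srsf10, Hnrnpul1, Fubp1 and the markers Opalin, Cldn11, Mog and Col3a1 were named after their values were seen. Plots used matplotlib 3.10.9.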

Additional observations from a re-analysis of the deposited data

How the results depend on the processing

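None of the alternatives gave a splicing regulator or any other gene an adjusted p under 0.05. Of the 48 named genes beside Elavl1, 26 kept the sign of their log2 fold change under every alternative in which they were tested, and 22 did not. The dim genes Sf3b4, Srpk3 and Eif4a3, among the 26, were not tested in the upper 50% of genes by level. All 22 had values within 0.12 of 0, and a cause was not tested. Members under an unadjusted p of 0.05 numbered 2 with array weights (4.54% of all genes), 1 with both arrays numbered 3 left out (5.12%) and 0 to 1 with 1 array left out (0.992% to 3.46%). Members without overlap numbered 4 with arrays centred on their median (Hnrnpm, Ptbp2, Srsf1 and Srsf4) and 3 with no brightness filter (Mbnl3, Srsf1 and Srsf4). They numbered 19 without both arrays numbered 3 and 3 to 12 with 1 array left out, where fewer arrays separate more easily. Srsf1 and Srsf4 were among them each time. With arrays left out this nearly follows from their separation on all 6 arrays, so it adds no support. The members' median log2 fold change was 0.068 with median centring, which also moved the median of all genes to 0.055, and -0.024 to 0.026 with 1 array left out. With median centring the kinases and coactivators had a median of 0.060, the core spliceosome 0.067 (0.032 with values as deposited) and the other RNA-binding regulators 0.079; with 1 array left out the kinases and coactivators ran from -0.072 to 0.045. Median centring moved the share of all genes above 0 to 68.6%, and the members above 0 to 38 of 47. Signs turned for Elavl1 with median centring (0.014), array weights (0.025), both arrays numbered 3 left out (0.059) and with 1 array left out (-0.18 to 0.081). They turned for Celf1 with array weights (-0.015) and with both arrays numbered 3 left out (-0.016), for Mbnl2 with the mean of its probesets (-0.049), and with median centring for Nova2 (0.030), Rbfox2 (0.022) and Srsf12 (0.026). With 1 array left out, log2 fold changes that crossed 0 ran for Celf1 -0.13 to 0.13, Celf2 -0.091 to 0.13, Celf3 -0.12 to 0.29, Celf4 -0.089 to 0.31, Celf5 -0.023 to 0.16, Celf6 -0.015 to 0.15, Hnrnpc -0.0029 to 0.14 and Hnrnpf -0.010 to 0.19. In the same way they ran for Hnrnpk -0.0021 to 0.080, Hnrnpll -0.23 to 0.090, Khdrbs1 -0.17 to 0.032, Khdrbs3 -0.090 to 0.10, Mbnl1 -0.055 to 0.080, Mbnl2 -0.071 to 0.14 and Nova2 -0.14 to 0.059. The rest ran for Ptbp3 -0.083 to 0.15, Rbfox1 -0.099 to 0.31, Rbfox2 -0.087 to 0.0068, Rbfox3 -0.13 to 0.19, Srsf12 -0.20 to 0.064, Srsf3 -0.046 to 0.18 and Tra2b -0.076 to 0.11. With the replicate number as a block, 806 genes had an unadjusted p under 0.05 in place of 282, and the members' counts under the adjusted and unadjusted limits were 0 and 0 as without it; of the other splicing genes, Snrpb and Eif4a3 came under the unadjusted limit with the block, and no adjusted call changed. The number of arrays, 3 per group, limits the precision.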
